A study of Saccharomyces cerevisiae with 12 samples.

Results

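Near the right end of chromosome XIV of budding yeast, 5 neighbouring genes gave almost no reads in every library of a strain labelled H3 S10D, while the reference strain of the same study gave reads from all of them. They run outward from PDR18 (YNR070W) through YNR071C, HXT17 (YNR072W) and MAN2 (YNR073C) to AIF1 (YNR074C). With the last 2 genes before this run, YNR068C and BSC5 (YNR069C), they form the block of 7 genes described here, out of 7127 features in the deposited count table. The members were chosen by position and by their low counts in the S10D-labelled libraries, so their values in one strain against the other are given as a description, with no test. Their response to estradiol was not used in that choice and was tested.

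The block covers 18672 bases of build R64, from position 760067 to 778738 of chromosome XIV, which is 784333 bases long. YNR068C (760067 to 760885, minus strand), BSC5 (761123 to 762592, minus), PDR18 (765375 to 769376, plus), YNR071C (770440 to 771468, minus), HXT17 (772657 to 774351, plus), MAN2 (774792 to 776300, minus) and AIF1 (777602 to 778738, minus) follow each other without overlap, and no other feature of the table overlaps a member. The silent run from PDR18 to AIF1 spans 13364 bases and stops 5595 bases before the end of the reference chromosome.

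Genes close to yeast chromosome ends often belong to families with near-identical copies at other ends, many of them for transport and sugar use, and such genes vary in presence between strains. Chromatin near telomeres can also silence genes through the Sir proteins, which are recruited to the end and spread inward along histones. The members serve several functions: PDR18 is an ABC transporter of the plasma membrane that takes part in sterol incorporation and drug tolerance, HXT17 a transporter of the hexose transporter family that can carry polyols, MAN2 a mannitol dehydrogenase and AIF1 the yeast homologue of apoptosis-inducing factor.

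Poly(A) RNA was measured in 12 libraries, 3 in each of 4 groups: each strain was treated for 3 hours with estradiol (E2) or with ethanol alone (EtOH). Both strains are labelled MATa, and in both the centromere CEN4 lies between lox sites marked with KanMX and a hormone-dependent Cre recombinase, which cuts out DNA between lox sites once estradiol binds it, is marked with LEU2 (written GDP-creEBD78 for the reference strain and GDP-creEDB78 for the other). The reference strain also carries the deletion alleles met15-delta-0 and his3-delta-1, together with ura3-delta-0 and leu2-delta-0. The other strain, S10D-labelled below, carries at hht2-hhf2 a construct with histone H3 changed from serine to aspartate at residue 10, marked with URA3. Its label adds a TetO array at trp1, a LacO array at lys4, LacR-GFP at his3, TetR-mRFP, a bar1 deletion, Ade1 and leu2-x. The strains therefore differ at many loci, and the histone change cannot be told apart from the rest of the background. No library came from a strain without the lox sites, so E2 itself and loss of CEN4 cannot be told apart either. The labels do not say that replicates were separate cultures, so p-values measure the spread between these libraries, which may be technical.

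Libraries held 9362173 to 11806239 counts. Several genes altered in the genotypes were checked by their counts: URA3 gave 0 to 5 in the reference and 1212 to 1529 in the S10D-labelled libraries, MET17 (the label's met15) 11 to 23 and 12171 to 16066, and HHF2 4428 to 7626 and 216 to 279. BAR1 gave 3162 to 3787 counts in the S10D-labelled libraries, although their label lists a deletion. LEU2 gave 2813 to 4244 and HIS3 627 to 882 in the reference libraries. All 6 markers of a cells were abundant in the reference EtOH libraries (AGA2, the lowest, at 172 CPM, the count scaled to library size), while the alpha-factor genes MF(ALPHA)1 and MF(ALPHA)2 stood at 1.63 and 0.28 CPM. The other markers of alpha cells, STE3 and SAG1, stood at 6.77 and 51.8 CPM. All 6 markers of a cells, BAR1 among them, were lower in the S10D-labelled strain in EtOH and in E2 (edgeR adjusted p under 0.05). Of the 3 markers of alpha cells tested, 1 (SAG1) was lower in EtOH and 3 in E2 by the same test. Of all genes tested, 31.4% were lower in EtOH and 27.3% in E2. AGA2 stood at 65.7 CPM in S10D-labelled EtOH and 56.5 CPM in S10D-labelled E2. Reference EtOH replicate 3 stood apart: over the genes tested, a chi-square per degree of freedom of 31.5 and 32.6 separated it from the other libraries of its group, while the 10 remaining pairs of libraries from the same group gave 1.40 to 5.01. Values without it are given for the reference E2 responses of YNR068C, BSC5 and PDR18 and for the differences in response between the strains.

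**Figure D1:**
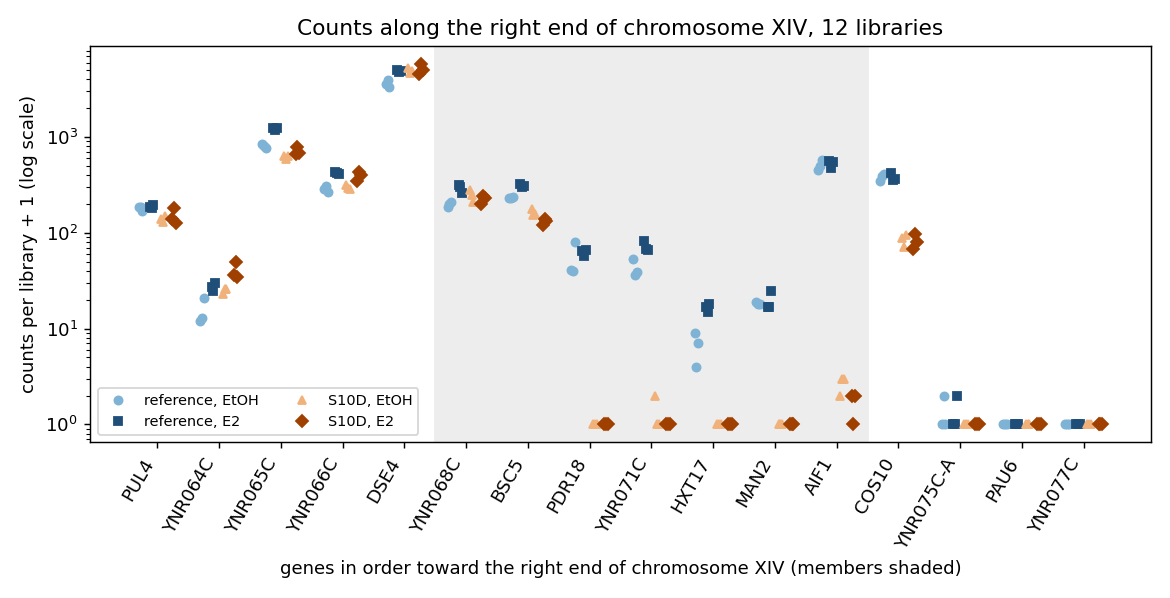
Counts per library + 1 (log scale) for the genes at the right end of chromosome XIV in their order, with the members shaded, for the 3 libraries of each of the 4 groups. From PDR18 to AIF1 the S10D-labelled libraries lie at 0 to 2 counts, while YNR068C, BSC5 and COS10 on either side have counts in all 12 libraries.

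Read counts of the silent run were almost absent from the S10D-labelled libraries under either treatment. Summed over the 5 genes, the reference libraries gave 566, 588 and 715 counts in EtOH and 736, 630 and 718 in E2. The S10D-labelled libraries gave 2, 2 and 2 counts in EtOH and 1, 0 and 1 in E2. The strains did not overlap, and the reference level was 279-fold higher in EtOH (95% exact interval 128 to 762, from 1869 against 6 counts) and 871-fold higher in E2 (241 to 7201, from 2084 against 2). These intervals, like the bounds below, cover counting error only. In RNA from whole cultures, fewer cells that express a gene and less RNA per cell cannot be told apart, and the copy number of the genes was not measured.

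AIF1, which encodes a mitochondrial cell death effector, held most of these reads. Its counts in the reference libraries were 448, 494 and 574 in EtOH and 560, 476 and 546 in E2. The S10D-labelled libraries had 1, 2 and 2 counts in EtOH and 1, 0 and 1 in E2. Every reference library lay above every S10D-labelled library. Over the summed counts of each group, the reference level was 272-fold higher in EtOH (116 to 839) and 662-fold higher in E2 (183 to 5467). AIF1 is the outermost silent gene, so the highest level of the block in the reference strain stood at its telomere side.

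PDR18 is the innermost silent gene and is related in sequence to SNQ2, a multidrug transporter, with 71.9% of bases and 72.2% of residues identical. The reference libraries gave 40, 39 and 80 counts in EtOH and 63, 57 and 65 in E2. All 6 S10D-labelled libraries gave 0, so that the reference level was at least 47.5-fold higher in EtOH and at least 51.6-fold higher in E2, against a floor of 3 counts over a group. With that floor set per library the bounds are 15.8-fold and 17.2-fold, and the exact 95% lower bounds are 38.2-fold and 41.5-fold. The highest value of the reference strain came from EtOH replicate 3, the library that stood apart.

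YNR071C, a putative aldose 1-epimerase related to YHR210C, gave 52, 35 and 38 counts in the reference EtOH libraries and 81, 67 and 66 in E2. A single read in S10D-labelled EtOH replicate 1 was the whole count of the other strain. The ratio was 112-fold in EtOH (19.8 to 4464, from 125 against 1 count) and at least 59.7-fold in E2 (19.9-fold with the floor per library, 48.1-fold as the exact 95% lower bound). The reference counts in E2 all exceeded those in EtOH.

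MAN2 and HXT17 had few reads in the reference strain too. MAN2 gave 18, 17 and 17 counts in EtOH and 16, 16 and 24 in E2, and 0 in each S10D-labelled library, a ratio of at least 15.6-fold under either treatment (5.18-fold in EtOH and 5.20-fold in E2 with the floor per library, 12.2-fold and 12.3-fold as exact 95% lower bounds). HXT17 gave 8, 3 and 6 counts in EtOH and 16, 14 and 17 in E2, against 0 in each S10D-labelled library, a ratio of at least 5.08-fold in EtOH and 13.1-fold in E2 (1.69-fold and 4.37-fold with the floor per library, 3.70-fold and 10.2-fold as exact 95% lower bounds). HXT17 lies nearest the floor, with fewer counts in EtOH than any other member.

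Near-identical copies on chromosome V bear on how these 2 genes were counted. HXT17 differs from HXT13 at 51 positions of its coding sequence, with 98.6% of residues identical, and MAN2 shares 98.9% with DSF1, differs at 16 positions and encodes the same protein sequence of 502 residues. The stretches of 60 bases with most differences are shown for each pair, because they hold the densest differences by which a read can be told to come from one copy, with the differing bases in capitals. They were read from the reference genome, build R64, at chrXIV:773107-773166 (plus strand), chrV:22722-22781 (minus), chrXIV:776214-776273 (minus) and chrV:19616-19675 (plus).

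HXT17: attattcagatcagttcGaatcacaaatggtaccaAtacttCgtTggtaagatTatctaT
HXT13: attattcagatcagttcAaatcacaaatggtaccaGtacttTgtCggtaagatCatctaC
MAN2: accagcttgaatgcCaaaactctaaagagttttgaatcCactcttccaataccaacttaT
DSF1: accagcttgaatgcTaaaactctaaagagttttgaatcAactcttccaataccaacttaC

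The HXT pair differs at 6 of the 60 positions shown and the MAN2 pair at 3. Across the whole coding sequence, 69.8% of the 50-base stretches of HXT17 and 41.5% of those of MAN2 occur once in the genome, and 93.0% and 63.3% of the 100-base stretches. For YNR068C, BSC5, PDR18, YNR071C and AIF1 every stretch of either length was unique. The counts of HXT17 and MAN2 are uncertain to that extent, since the counting of reads with several matches is not given in the sources used here. Their copies did have reads in the S10D-labelled strain: DSF1 gave 15 to 33 counts per library there and 13 to 30 in the reference, and HXT13 gave 2 to 7 and 3 to 10.

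**Figure D2:**
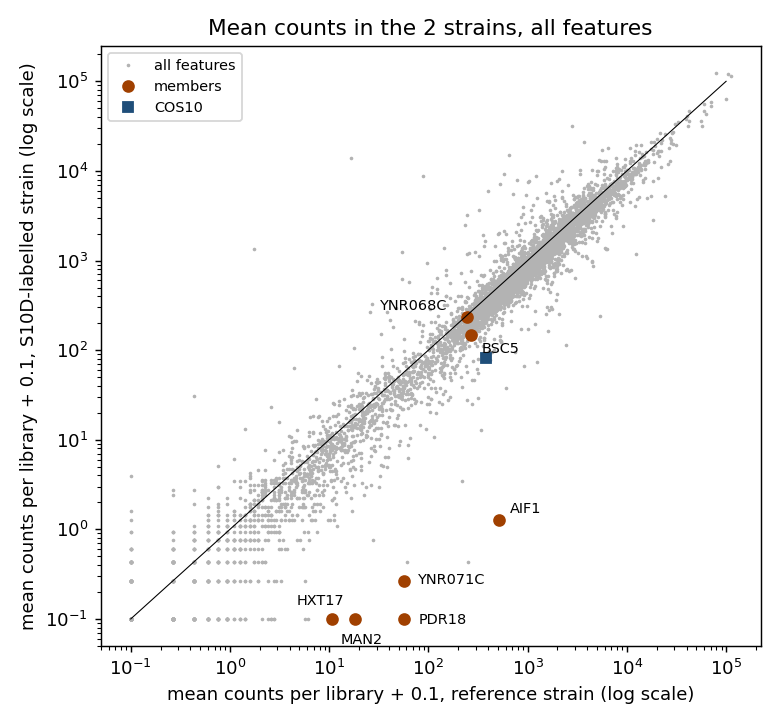
Mean counts per library + 0.1 in the S10D-labelled strain against the reference strain (log axes, 6 libraries each) for all features, with members as large circles and COS10 as a square. The 5 silent members lie far below the line of equal counts, while YNR068C and BSC5 lie close to it.

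YNR068C and BSC5 kept their reads in the S10D-labelled strain. BSC5 belongs to the genes with a leaky stop codon, and reading through it joins its protein to that of YNR068C into the adaptor named Bul3, a relative of Bul1 and Bul2, which bring the ubiquitin ligase Rsp5 to membrane transporters. The end of BSC5 is printed because it is where these 2 members meet, with the stop codon in capitals (chrXIV:761108-761137, minus strand, build R64).

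BSC5 end: aaaaagaaacacTAGtctgaagaagataaa

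From that TAG to the start of YNR068C lie 237 bases, or 79 codons in the same frame, with 0 further in-frame stop codons. On the other side, 2782 bases separate BSC5 from PDR18, and the change from read-bearing to silent genes falls between them. In local protein alignments with Bul1, BSC5 was identical at 41.8% of 388 residues and YNR068C at 36.1% of 266.

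YNR068C gave 186, 198 and 209 counts in reference EtOH, 312, 302 and 261 in reference E2, 279, 246 and 207 in S10D-labelled EtOH and 201, 243 and 232 in S10D-labelled E2. Scaled levels were 18.4 ± 0.625, 24.4 ± 2.18, 25.3 ± 3.46 and 22.5 ± 1.02 CPM in these groups (SD, n = 3). The strains did not overlap in EtOH and overlapped in E2. BSC5 gave 229, 228 and 238 counts in reference EtOH, 322, 297 and 308 in reference E2, 178, 151 and 157 in S10D-labelled EtOH and 120, 140 and 132 in S10D-labelled E2. Its levels were 21.6 ± 0.867, 25.8 ± 0.098, 16.8 ± 0.665 and 13.1 ± 0.330 CPM (SD, n = 3), lower in every S10D-labelled library than in every reference library of the same treatment. As a description, the fitted difference between the strains in log2 units (S10D-labelled minus reference) was 0.46 ± 0.10 (SE) for YNR068C and -0.36 ± 0.07 for BSC5 in EtOH, and -0.11 ± 0.10 and -0.98 ± 0.07 in E2. Among all 5990 genes tested, 58.1% were called between the strains in EtOH (26.7% higher and 31.4% lower in the S10D-labelled strain) and 54.3% in E2 (27% and 27.3%). The libraries of the strains did not overlap for 61% of genes tested in EtOH and 68.6% in E2.

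The balance between the 2 genes therefore differed between the strains. Per kilobase of coding sequence, the ratio of YNR068C to BSC5 counts was 1.53 ± 0.0639 in reference EtOH and 1.70 ± 0.157 in reference E2. It was 2.70 ± 0.295 in S10D-labelled EtOH and 3.09 ± 0.0768 in S10D-labelled E2 (SD, n = 3). Every S10D-labelled library had a higher ratio than every reference library.

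**Figure D3:**
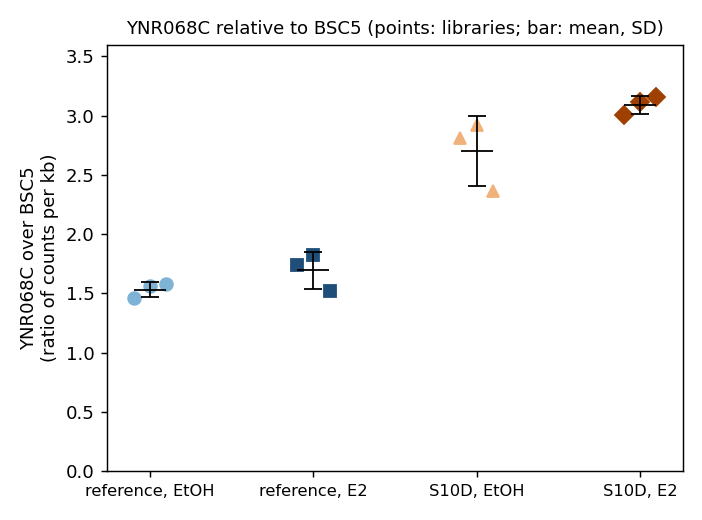
Ratio of YNR068C to BSC5 counts per kilobase of coding sequence in each library (points), with the mean and SD of 3 libraries per group. Group means run from 1.53 in reference EtOH to 3.09 in S10D-labelled E2, and the strains do not overlap.

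**Figure D4:**
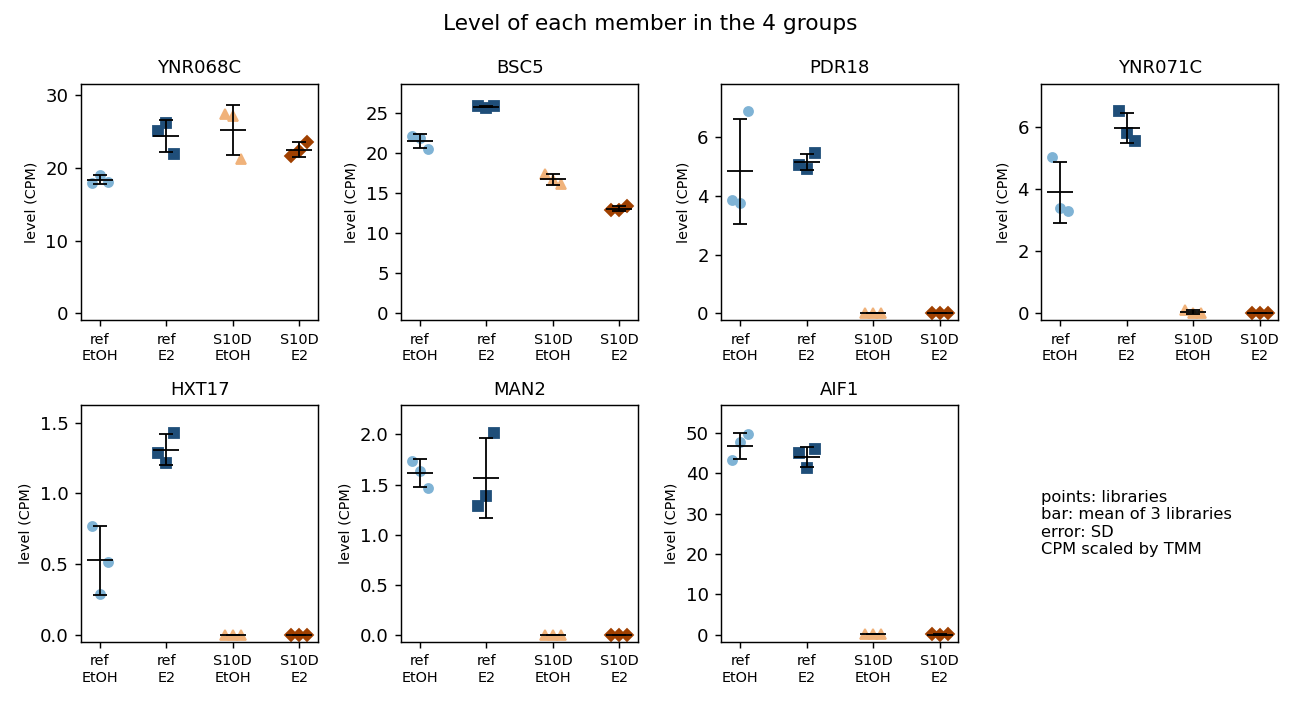
Level of each member in CPM scaled by trimmed mean of M-values (TMM), per library (points), with the mean and SD of 3 libraries in each of the 4 groups, on an axis that differs between panels. YNR068C and BSC5 have levels in all groups, and the other 5 members are at or near 0 in the S10D-labelled groups.

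Compared per kilobase, AIF1 had the highest level of the block in reference EtOH at 41.2 CPM per kb of coding length. It was followed by YNR068C at 22.4, BSC5 at 14.7, YNR071C at 3.78, PDR18 at 1.21, MAN2 at 1.07 and HXT17 at 0.311 CPM per kb. PDR18 and MAN2 overlapped between libraries (0.940 to 1.73 against 0.973 to 1.15), and the other neighbours in this order did not. In reference E2 the order was unchanged, from 38.8 CPM per kb for AIF1 to 0.773 for HXT17, and PDR18 and MAN2 again overlapped. Coding length leaves out the untranslated ends of the mRNAs.

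The comparison of E2 with EtOH asks how RNA levels changed once E2 had been given to cells with a removable centromere. HXT17 passed the filter on low counts only through its E2 libraries, so its call is not counted here or used as support. Of the other members, 3 rose with E2 in the reference strain (YNR068C, BSC5 and YNR071C) and 0 fell (edgeR quasi-likelihood test, Benjamini-Hochberg adjusted p under 0.05 over 5990 genes). Of all genes tested, 22.4% were higher and 22.2% lower, so that 44.6% were called in either direction. These 3 members had no overlap between the EtOH and E2 libraries, which was true of 48.7% of all genes tested.

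YNR068C rose by 0.41 ± 0.10 on the log2 scale (SE, edgeR adjusted p = 0.00513) and BSC5 by 0.26 ± 0.07 (edgeR adjusted p = 0.00675). Both were higher in all 3 E2 libraries than in any EtOH library. Without reference EtOH replicate 3 the values were 0.40 and 0.23.

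YNR071C rose by 0.62 ± 0.20 (SE, edgeR adjusted p = 0.0263), from 3.89 ± 0.980 to 5.96 ± 0.496 CPM (SD, n = 3). HXT17 rose by 1.30 ± 0.39 (edgeR adjusted p = 0.0218), from 0.527 ± 0.242 to 1.31 ± 0.111 CPM. These calls were lost under DESeq2 (adjusted p = 0.0734 for YNR071C and 0.0989 for HXT17) and without single libraries: for YNR071C without reference EtOH replicate 2 (0.0795), E2 replicate 1 (0.0822) or E2 replicate 2 (0.0565), and for HXT17 without EtOH replicate 2 (0.0663) or E2 replicate 3 (0.0639).

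The other 3 members did not pass the test. PDR18 changed from 4.85 ± 1.79 to 5.16 ± 0.278 CPM, a log2 difference of 0.08 ± 0.24 (edgeR adjusted p = 0.826), which became 0.43 ± 0.21 without reference EtOH replicate 3 (adjusted p = 0.0846). MAN2 stood at 1.62 ± 0.137 and 1.56 ± 0.398 CPM, a difference of -0.04 ± 0.28 (adjusted p = 0.914). AIF1 stood at 46.8 ± 3.23 and 44.1 ± 2.49 CPM, a difference of -0.09 ± 0.08 (adjusted p = 0.389). The libraries of both treatments overlapped for each of these genes.

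In the S10D-labelled strain the response could be measured for YNR068C and BSC5 alone, and BSC5 fell. Its log2 change was -0.36 ± 0.08 (SE, edgeR adjusted p = 0.0199), in a comparison in which 4.56% of all genes tested were called (2.14% lower and 2.42% higher). That share, 273 genes, is itself unstable: it ran from 102 to 991 genes when single libraries were left out, with 991 without reference EtOH replicate 3, and to 1370 in a fit of the 6 S10D-labelled libraries. All 3 E2 libraries had fewer BSC5 counts than any EtOH library, an absence of overlap seen in 35.8% of genes tested. The call was lost when any of 5 of the 6 S10D-labelled libraries was left out (adjusted p 0.0562 to 0.0954). YNR068C gave -0.17 ± 0.10 (adjusted p = 0.459), with libraries that overlapped.

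Tested directly, the E2 responses of both genes differed between the strains. The S10D-labelled response minus the reference response was -0.57 ± 0.14 for YNR068C (SE, edgeR adjusted p = 0.0120) and -0.62 ± 0.10 for BSC5 (edgeR adjusted p = 0.000775). Over all genes tested, 20.4% were called by the same test, 10.6% with a lower and 9.82% with a higher response in the S10D-labelled strain. Without reference EtOH replicate 3 the differences were -0.56 and -0.59, and the genes called by this test numbered 1994 in place of 1224.

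**Figure D5:**
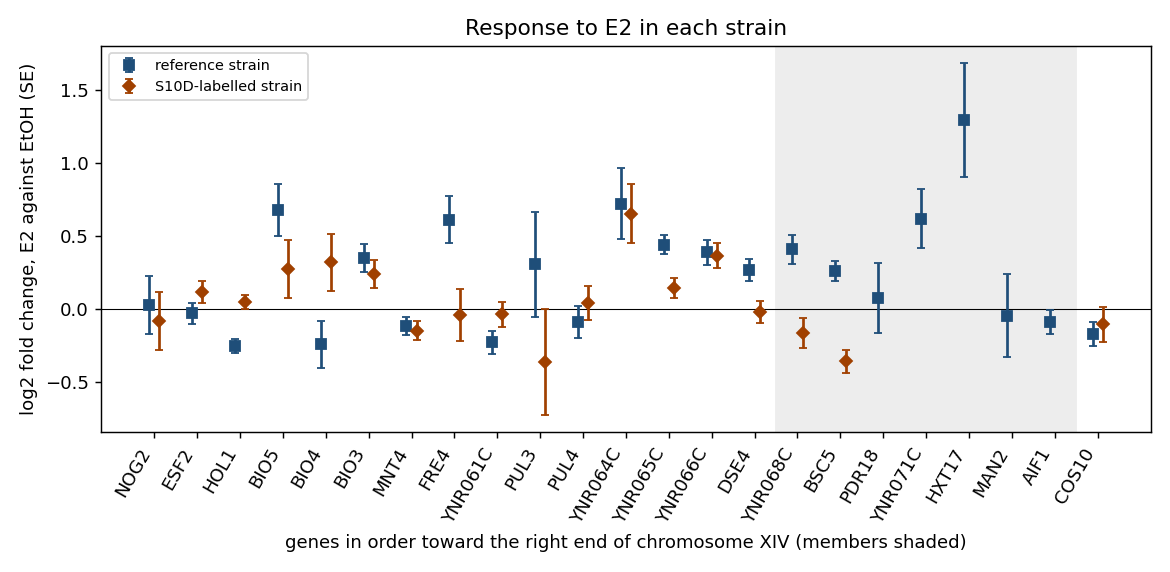
Log2 fold change of E2 against EtOH with its SE in the reference strain (squares) and the S10D-labelled strain (diamonds) for genes along the right end of chromosome XIV, with the members shaded; silent members have no S10D-labelled value. YNR068C and BSC5 lie above 0 in the reference strain and below 0 in the S10D-labelled strain.

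Promoter windows of 300 bases, from 250 before to 50 after the first base of the coding sequence, were read from build R64. Windows are printed for the members on either side of the change and at the outer edge of the silent run (BSC5, PDR18 and AIF1) and for YNR071C, which rose with E2. Capitals mark matches on either strand to TATAAA (core of the TATA box), CCAAT (bound by the Hap complex), AGGGG (the stress response element) or CCGCGG (core of the Pdr1 and Pdr3 element). They lie at chrXIV:762543-762842 (minus), chrXIV:765125-765424 (plus), chrXIV:771419-771718 (minus) and chrXIV:778689-778988 (minus).

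BSC5 promoter: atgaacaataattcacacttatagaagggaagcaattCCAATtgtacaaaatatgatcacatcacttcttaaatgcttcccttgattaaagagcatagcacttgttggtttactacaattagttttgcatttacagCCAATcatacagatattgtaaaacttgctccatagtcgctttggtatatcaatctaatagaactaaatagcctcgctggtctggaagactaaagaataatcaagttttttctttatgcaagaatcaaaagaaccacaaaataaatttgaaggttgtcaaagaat
PDR18 promoter: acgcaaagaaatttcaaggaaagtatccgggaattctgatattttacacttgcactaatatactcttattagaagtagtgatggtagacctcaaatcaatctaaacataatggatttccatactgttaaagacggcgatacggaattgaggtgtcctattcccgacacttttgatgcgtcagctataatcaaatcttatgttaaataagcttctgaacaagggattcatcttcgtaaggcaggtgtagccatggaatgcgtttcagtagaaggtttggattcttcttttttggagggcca
YNR071C promoter: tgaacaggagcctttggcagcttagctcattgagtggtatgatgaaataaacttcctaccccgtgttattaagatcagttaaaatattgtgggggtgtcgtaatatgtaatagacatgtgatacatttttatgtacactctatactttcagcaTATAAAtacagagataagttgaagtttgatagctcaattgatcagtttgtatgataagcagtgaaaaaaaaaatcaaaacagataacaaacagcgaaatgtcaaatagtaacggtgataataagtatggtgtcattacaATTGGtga
AIF1 promoter: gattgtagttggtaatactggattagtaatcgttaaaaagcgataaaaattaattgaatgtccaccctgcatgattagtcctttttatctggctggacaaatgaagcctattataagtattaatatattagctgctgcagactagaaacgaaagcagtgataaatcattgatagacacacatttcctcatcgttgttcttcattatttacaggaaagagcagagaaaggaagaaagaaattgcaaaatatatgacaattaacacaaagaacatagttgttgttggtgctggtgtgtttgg

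None of the motifs searched was found in every window of the silent run, and other motifs were not searched. TATAAA was found for YNR071C, HXT17 and MAN2, and occurs in 45.2% of 6001 promoter windows of the genome. CCAAT was found for YNR068C, BSC5, YNR071C and MAN2 (43.3% of windows), AGGGG for YNR068C (21.6%) and CCGCGG for no member (1.23%). The CCAAT match of YNR071C begins at base 43 of its coding sequence, not upstream of it. PDR18 and AIF1 held none of these letters in their windows.

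Beyond AIF1, COS10 (YNR075W, 779916 to 781040, plus strand), a member of the subtelomeric COS family, was lower in the S10D-labelled strain but not silent. It gave 350, 393 and 412 counts in reference EtOH, 422, 354 and 365 in reference E2, 87, 71 and 93 in S10D-labelled EtOH and 67, 96 and 79 in S10D-labelled E2. The strains did not overlap, and the log2 difference was -2.05 ± 0.10 in EtOH (SE, edgeR adjusted p = 3.2e-10) and -1.98 ± 0.10 in E2 (6.4e-10). All of its 50-base stretches are unique in the reference genome. Its E2 response in the reference strain did not pass the test (-0.17 ± 0.08, adjusted p = 0.103). YNR075C-A gave 0 to 1 counts per library, and PAU6 and YNR077C gave 0 in all 12.

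On the centromere side the 15 nearest genes, from NOG2 to DSE4, had at least 8 counts in each of the 12 libraries. In the reference strain 7 of them rose with E2 and 2 fell, with a median log2 change of 0.27 against -0.00 for all genes tested. Of all genes tested, 22.4% rose and 22.2% fell. YNR065C rose by 0.44 ± 0.07 (SE, edgeR adjusted p = 9.1e-05), YNR066C by 0.39 ± 0.09 (0.00236) and DSE4, a glucanase of daughter cell separation next to YNR068C, by 0.27 ± 0.08 (0.0113). HOL1, a transporter gene, fell by 0.25 ± 0.05 (0.000724). In the S10D-labelled strain YNR066C alone among the 15 was called, with a rise of 0.37 ± 0.09 (0.0282). Of all genes tested, 4.56% were called there. Between the strains in EtOH, 2 of the 15 were higher and 5 lower in the S10D-labelled strain (26.7% and 31.4% of all genes tested). DSE4 was higher by 0.60 ± 0.08.

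Across the genome few features were silent in one strain and expressed in the other. With at most 3 counts in every library of one strain and at least 10 in every library of the other, 9 of 5790 features (0.155%) were off in the S10D-labelled strain. They were the members PDR18, YNR071C, MAN2 and AIF1, and YBR012C, YBR013C, YDR365W-B, YLR466C-B and YPR158C-D elsewhere. HXT17 missed this threshold because its reference EtOH libraries had under 10 counts. The reverse was found for 1 of 5726 features (0.0175%), YCL019W. Of the 50-base stretches, 0.958% were unique in YDR365W-B, 3.91% in YPR158C-D and 1.56% in YCL019W, so the counts of these features are uncertain. With at least 30 counts pooled over the 6 libraries in place of 10 in each, a rule chosen after the data had been seen, 34 of 6122 features (0.555%) were off in the S10D-labelled strain, among them all 5 silent members. Those 5 formed the only run of 3 or more adjacent features among those with a position. Since the block was chosen for this silence, these counts describe it and do not test it.

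Among the 32 chromosome ends, taking features within 25000 bases, the right end of chromosome XIV had the lowest ratio of summed CPM between the strains (S10D-labelled over reference), 0.345. The next lowest was 0.596, at the left end of chromosome VIII, and the highest 5.71, at the left end of chromosome VI. The sum for the right end of chromosome XIV includes the silent members, which were chosen for their low counts. A ratio without them was not computed. The rank of this end, like the pooled-rule result that follows, therefore describes the block and does not test it. No other end held a feature with a known position that was off in the S10D-labelled strain by the pooled rule. Features off by that rule but without a position, among them YLR466C-B and YAR053W, could not be assigned to an end. Over all ends and with the members left out, 39 of 206 tested genes rose with E2 in the reference strain and 29 fell, against 22.4% and 22.2% of all genes tested.

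Of the 22 paralogs of the members, 17 were tested. In the reference strain 7 of these rose with E2 and 1 fell, against 22.4% and 22.2% of all genes tested. SNQ2, the closest relative of PDR18, rose by 0.80 ± 0.06 (SE, edgeR adjusted p = 1.68e-07), and the ABC transporters PDR10 and PDR12 rose by 0.77 ± 0.07 and 0.72 ± 0.11. PDR5 rose by 0.36 ± 0.06, AUS1 by 0.26 ± 0.07, BUL1 by 0.21 ± 0.05 and IRC15, a relative of AIF1, by 1.43 ± 0.09. YHR210C, the relative of YNR071C, fell by 0.41 ± 0.12 (adjusted p = 0.0108), while YNR071C rose. BUL2, PDR15, PDR11, ADP1, GAL10, DSF1, NDI1, NDE1 and NDE2 did not pass the test, and HXT13, HXT15, HXT16, SOR1 and SOR2 had too few counts to be tested.

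Between the strains in EtOH, 6 of these 17 paralogs were higher and 3 lower in the S10D-labelled strain (26.7% and 31.4% of all genes tested). SNQ2 was higher by 1.30 ± 0.06 on the log2 scale (SE, edgeR adjusted p = 1.72e-10) and PDR11, a sterol uptake transporter, by 0.97 ± 0.07. NDE1, an external NADH dehydrogenase of mitochondria, was higher by 0.95 ± 0.12, and for its paralog NDE2 the log2 difference was -1.21 ± 0.20. BUL1 was higher by 0.39 ± 0.05. The response of SNQ2 to E2 also differed between the strains, by -0.78 ± 0.08 (adjusted p = 1.9e-05), and that of BUL1 by -0.33 ± 0.08 (0.00713).

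The wider pathways of the members were counted in the same way. Of 16 ABC transporters and drug resistance regulators, 6 rose and 1 fell with E2 in the reference strain (22.4% and 22.2% of all genes tested). In EtOH 8 were higher and 2 lower in the S10D-labelled strain (26.7% and 31.4% of all), including the transcription factors YRR1 (0.78 ± 0.05) and PDR1 (0.69 ± 0.05). Their median log2 values were 0.14 and 0.21, against -0.00 and -0.03 for all genes tested. Of 13 genes for Rsp5 and its adaptors, 6 rose with E2 in the reference strain and 0 fell (22.4% and 22.2% of all genes tested), with CSR2 (1.14 ± 0.07), ALY2 (0.47 ± 0.06), ECM21 (0.38 ± 0.06) and ROD1 (0.31 ± 0.07) at the front. Of the 13, 4 had a lower response in the S10D-labelled strain and 0 a higher one, against 10.6% and 9.82% of all genes tested. RSP5 itself, the ligase, did not pass the test in the reference strain (0.03 ± 0.08).

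Of 12 tested genes for polyol and hexose uptake, 3 rose with E2 in the reference strain and 3 fell (22.4% and 22.2% of all genes tested). Those that rose were HXT14 by 1.88 ± 0.45, HXT5 by 1.83 ± 0.09 and HXT3 by 0.47 ± 0.07. Among those that fell were HXT6 by 1.11 ± 0.16 and HXT7 by 0.95 ± 0.09. HXT14 passed the filter on low counts only through E2 libraries, with 1, 7 and 3 counts in reference EtOH. Its call is therefore not counted as support. HXT6 and HXT7 are near-identical, with 4.93% of 50-base stretches unique in each, so their separate counts are uncertain. Of 11 genes for cell death and NADH oxidation in mitochondria, 2 rose, with CYC7 at 2.14 ± 0.11, and 3 fell, with CYC1 at -0.69 ± 0.04. Those counts stand against the same 22.4% and 22.2% of all genes tested. The caspase-like MCA1 and the nuclease NUC1 of this list did not pass the test (-0.15 ± 0.06 and -0.16 ± 0.06). Of 15 factors of subtelomeric silencing, 4 rose and 3 fell with E2 in the reference strain (22.4% and 22.2% of all genes tested). In the S10D-labelled strain 2 were higher and 6 lower in EtOH (26.7% and 31.4% of all genes tested). Between the strains in EtOH, SIR4 was higher by 0.42 ± 0.06 on the log2 scale (SE, edgeR adjusted p = 4.0e-05), while the values were -0.42 ± 0.05 for RAP1, which binds telomere repeats, -0.42 ± 0.08 for YKU80 and -0.40 ± 0.05 for TUP1. Their part in the silence of the members was not tested.

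As a description over 12 libraries that fall into 2 strains, the features most like the mean log2 level of the silent members were ICS2 (Pearson r = 0.997), COS8 (0.997), MSA1, PHM6 and MAP1 (each 0.996). Their levels were lower in the S10D-labelled strain without reaching 0, from 169 to 42.7 CPM for ICS2 and from 128 to 24.6 CPM for COS8 in EtOH. Ranked by Spearman's rho in place of Pearson's r, 0 of these 5 stayed among the first 5. Over the 6 reference libraries the most alike were RKM4 (r = 0.989), SMY1 (0.985), YMR320W (0.984), YMR262W (0.983) and THI2 (0.982), of which 2 stayed by Spearman's rho and 4 with DESeq2 size factors. These points share libraries and depth, and the 6 fall into 2 treatments.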

How the data were processed

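Poly(A) RNA was measured in 12 stranded libraries that each began with 400 ng of total RNA and had 12 cycles of PCR, per the labels. The authors deposited raw counts of reads per feature, 7127 features by 12 libraries. The submitters' processing notes name STAR 2.5.3a and HTSeq 0.6.1p1, with cutadapt 1.10 and bcl2fastq 2.20.0.422, and the builds sacCer3 and R64; what each tool did, whether counting used strand, and the annotation release are not given in the sources used here. Positions and sequences are from RefSeq's R64, matched by locus tag (6047) or symbol (41); 1039 could not be placed, with at most 0.481% of the counts in any library.

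Counts were filtered with edgeR's filterByExpr (minimum count 10, minimum total 15, leaving 5990 genes), scaled by TMM and fitted in edgeR 4.0.16 under R 4.3.3 (robust quasi-likelihood test, 2-sided) over 4 group means in all 12 libraries, with 8 residual degrees of freedom and Benjamini-Hochberg adjustment over all genes tested, called at 0.05. DESeq2 1.42.0, other scalings, filters, a replicate block and leaving out each library were alternatives. Levels are TMM-scaled CPM with the SD of 3 libraries. Ratios near 0 counts use exact (Clopper-Pearson) 95% intervals or a floor of 3 counts over the group. Without molecular identifiers, PCR reads are not independent molecules, so intervals and floors cover counting error only. Likeness used log2(CPM + 0.5). The pipeline was tested on simulated data. Members, lists and tests were chosen with earlier results of these data known. The text names all members, their paralogs and neighbours, the 5 features most alike by each measure, and up to 4 called genes with the largest change of other lists; HXT3, MCA1 and NUC1 were named after their values were seen.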

Additional observations from a re-analysis of the deposited data

Results flagged for a closer look

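The E2 responses of both members with reads in the S10D-labelled strain differed between the strains by a test of the difference itself. The S10D-labelled response minus the reference response was -0.57 on the log2 scale for YNR068C and -0.62 for BSC5 (edgeR adjusted p = 0.0120 and 0.000775), where 20.4% of all genes tested differed in either direction.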

How the results depend on the processing

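The E2 responses of YNR068C and BSC5 in the reference strain and their differences between strains kept direction and call under every alternative run (0.36 to 0.48, 0.23 to 0.33, -0.68 to -0.51 and -0.66 to -0.59 on the log2 scale). PDR18 and MAN2, called under no alternative, changed sign: PDR18 ran from -0.077 to 0.43 and MAN2 from -0.27 to 0.087 when single libraries were left out, and MAN2 was 0.024 with library totals. With HXT17 counted where it was called, members called in the reference strain numbered 4 in the main fit. They numbered 2 under DESeq2, 2 with a mean of at least 10 CPM (which leaves 3 members), and 2 to 4 when single libraries were left out. Leaving out a library gave 2133 to 3133 genes called for E2 in the reference strain, 102 to 991 in the S10D-labelled strain, 906 to 1994 for the difference, and 3127 to 3935 and 2825 to 3989 between the strains in EtOH and E2; the highest count came without reference EtOH replicate 3 in each of these comparisons. A fit of the 6 libraries compared called 1370 genes for E2 in the S10D-labelled strain, against 273. Features off in the S10D-labelled strain numbered 4 with at most 0 and at least 10 counts and 34 by the pooled rule, added after the data had been seen; those off in the reference strain numbered 2 (at most 10, at least 30), 0 (at most 0, at least 10) and 4 (pooled). The cause of these shifts was not tested. The main fit did not pair libraries by replicate number. Within each strain every library nevertheless correlated best with its own number. These correlations of deviations were 0.0760 to 0.187 in the reference and 0.0568 to 0.0901 in the S10D-labelled strain. The same held between the strains in E2 (0.0543, 0.0895 and 0.0689) but not in EtOH. Whether libraries of the same number shared a batch was not tested. With the number as a replicate block, 2679, 264, 1257, 3504 and 3280 genes were called in the 5 comparisons and 4 members, HXT17 among them, rose. Low counts limit HXT17 and MAN2.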
